A study of Mus musculus with 6 samples.

Results

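The genes described here encode subunits of the proteasome, the barrel-shaped protease that destroys ubiquitin-tagged proteins in every cell. They were taken by symbol, as all genes named Psma, Psmb, Psmc, Psmd or Psme with a number whose probe set carried exactly 1 gene symbol, leaving out Psmb8 and Psmb9. This gave 40 genes of the 22180 tested, read by 42 probe sets, and where 2 probe sets read a gene (Psma5 and Psmc2) the brighter was used. A gene such as Psma4, whose probe sets carried several symbols, was therefore not analysed here. The 40 genes are 7 of the alpha ring and 9 of the beta ring (together 16 of the core), 9 of the base, 8 of the lid, 4 activators and 3 chaperones of base assembly.

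RNA came from primary lung fibroblast cultures of male wild-type C57BL/6 mice aged 8 weeks, grown in serum-containing medium, passaged no more than 3 times and split over wells. Their labels give no purity. The 3 vehicle wells received solvent and the 3 purmorphamine wells received purmorphamine at 5 µM (written 5um in the labels), both for 24 h, and each well gave 1 Affymetrix array. Purmorphamine activates Smoothened, the signalling protein of the Hedgehog pathway. The labels do not say how many mice or cell pools lay behind the wells, so the p-values rest on differences among wells, which may be technical in origin. Values are log2 signals as the authors deposited them. All differences below are purmorphamine minus vehicle on that log2 scale, fitted with limma over all genes, and a gene is said to have risen or fallen if its Benjamini-Hochberg adjusted p lay under 0.05.

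The core of the proteasome is a stack of rings. The alpha rings form the gate, and the beta rings hold the proteolytic sites in the subunits encoded by Psmb5, Psmb6 and Psmb7. A regulatory particle caps the core: its base holds the ATPases that unfold substrates (Psmc genes) and large scaffold subunits, and its lid removes the ubiquitin chains. In leukocytes and in cells exposed to interferon, the inducible subunits encoded by Psmb8, Psmb9 and Psmb10 replace the standard catalytic subunits, Psmb10 taking the place of Psmb7, and the activator encoded by Psme1 and Psme2 can cap the core. The subunits are needed in fixed proportion, and the transcription factor NRF1, encoded by Nfe2l1, is known to raise their genes when proteasome activity falls short. The letters TGACNNNGC (N being any base) are the core of the element that NRF1 and the related NRF2 bind, and CCAAT is the box bound by NF-Y.

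To show what the start regions of these genes look like, the 250 bases before the annotated starts of 33 of the 40 genes (36 windows) were read from RefSeq on build GRCm38.p6 and searched on both strands. Psmd3 and Psmb7 were among the genes without a window. TGACNNNGC was present in 5 windows (13.9%), against 10.2% of all 32851 windows. Each is printed along its gene with up to 25 bases on either side, as far as the window reaches, with the matching letters in capitals.
Psmb5, chr14:54618009-54618067, minus strand: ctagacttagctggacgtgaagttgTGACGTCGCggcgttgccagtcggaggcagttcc
Psmb6, chr11:70525323-70525356, plus strand: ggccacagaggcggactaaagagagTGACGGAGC
Psmc6, chr14:45329574-45329630, plus strand: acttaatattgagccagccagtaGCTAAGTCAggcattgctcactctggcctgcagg
Psmd12, chr11:107479278-107479314, plus strand: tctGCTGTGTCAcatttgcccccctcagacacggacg
Psmd9, chr5:123228134-123228189, plus strand: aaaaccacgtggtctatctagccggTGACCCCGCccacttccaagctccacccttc
CCAAT was present in 13 windows (36.1%), against 33.8% of all windows, and none of the 5 windows above held both motifs. The median GC content was 57.4% in the members' windows (range 42.8% to 77.2%) and 52.4% in all windows. The median number of CG dinucleotides was 15 and 6. A match of letters is a description and not a binding site.

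The window of Psmb10 is shown because this gene changed most among the members. It held neither motif and 3 CG dinucleotides, and it precedes the start given in that table, other starts not having been considered.
Psmb10, chr8:105938393-105938642, minus strand: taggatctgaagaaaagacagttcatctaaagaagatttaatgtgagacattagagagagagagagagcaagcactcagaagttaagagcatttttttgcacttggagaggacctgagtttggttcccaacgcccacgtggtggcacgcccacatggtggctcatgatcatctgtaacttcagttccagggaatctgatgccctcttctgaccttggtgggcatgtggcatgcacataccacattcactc

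Differences in proteasome subunit transcripts between purmorphamine and vehicle were small. Of the 40 genes, 2 fell, the inducible catalytic subunit gene Psmb10 (1.33-fold lower) and the lid gene Psmd3 (1.18-fold lower), and 0 rose. That is 5.00% of the members, where 14.3% of all genes tested were called (limma adjusted p under 0.05, 7.18% higher and 7.16% lower). At an unadjusted p under 0.05, limma gave 7 lower and 1 higher, or 20.0% of the members against 28.2% of all genes. Differences ran from -0.41 (Psmb10) to 0.19 (Psma5, a dim probe set), and the median size of a difference, sign dropped, was 0.08 against 0.11 for all genes. The 95% interval of the difference lay within 1.5-fold either way (0.58 on the log2 scale) for 40 of the 40 genes, against 91.0% of all genes. It lay within 1.2-fold either way (0.26) for 27 of them, or 67.5%, against 36.4% of all genes and 45.5% of the 7566 genes with a mean signal over 8.2, which is near the upper quartile of every array. A mean signal over 8.2 was also found in 34 of the 40 members. Of the 7566 brighter genes, 28.4% were called (limma adjusted p under 0.05). An unadjusted limma p under 0.05 was found in 47.3% of them, and their median size of a difference was 0.13. The share of members called depended on the fit. With a variance trend and robust fit, 7 members fell and 3 rose, which is 10 of 40 against 21.2% of all genes. The lower share among the members was then no longer seen against all genes, and the brighter genes were not counted apart in that fit. With an offset of 50 the shares were 17.5% of members and 20.1% of all genes. Without the dimmest genes they were 10.5% of members and 29.4% of the genes kept.

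**Figure D1:**
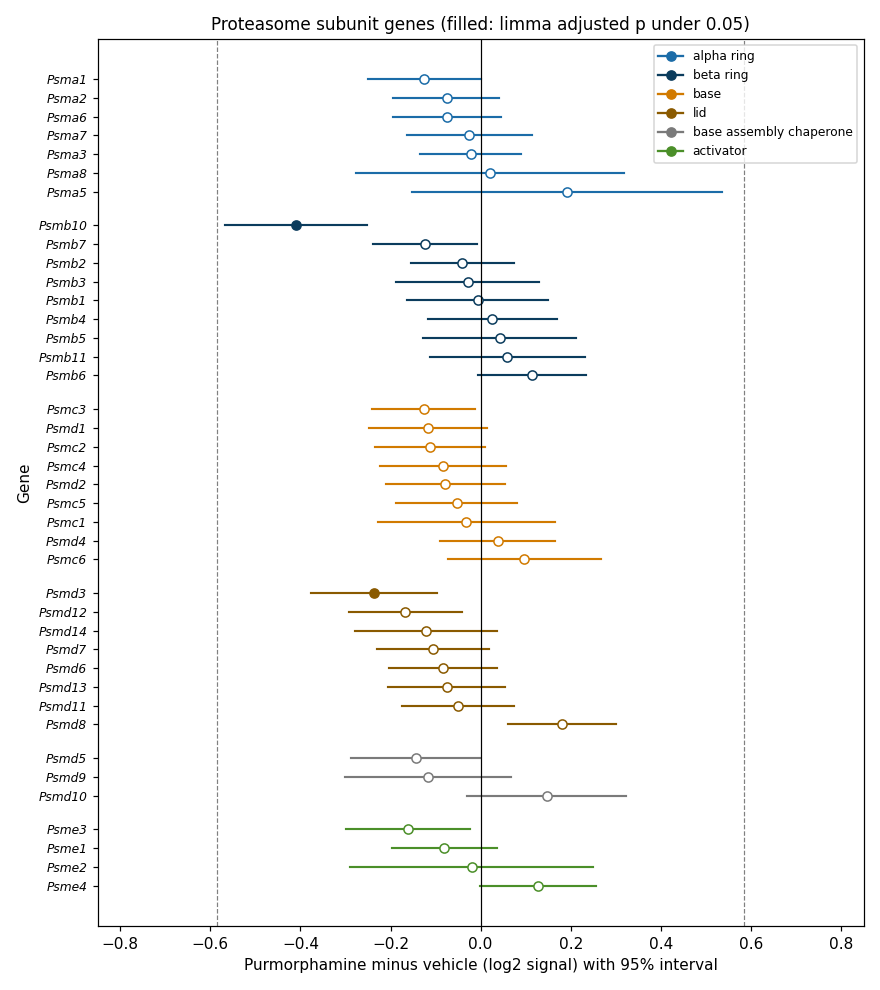
Difference between purmorphamine and vehicle (log2 signal, horizontal axis) for each of the 40 genes by class, with its 95% interval from limma. Filled points passed the test, dashed lines mark 1.5-fold, and the 2 filled points (Psmb10 and Psmd3) lie left of 0.

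Small negative differences were common among the members. The difference was negative in 29 genes and positive in 11, or 27.5%. It was positive in 48.0% of all genes tested and in 51.8% of genes with a mean signal over 8.2. The median difference of the members was -0.06, against -0.01 for all genes tested and 0.009 for the brighter ones. In 19 members (47.5%) all 3 purmorphamine arrays lay below all 3 vehicle arrays, against 17.1% of all genes and 29.2% of genes with a mean signal over 8.2. In 3 members (7.50%), Psmb6, Psmd8 and Psme4, the purmorphamine arrays all lay above, against 17.1% of all genes and 30.9% of the brighter ones. Averaged over the 40 genes, each gene taken as its deviation from its own mean, the vehicle arrays stood at 0.04, -0.002 and 0.03 and the purmorphamine arrays at -0.01, -0.03 and -0.03. The groups did not overlap in this average, but vehicle replicate 2 lay closer to the purmorphamine arrays than to vehicle replicate 1. The same average over all genes tested stood at -0.0023, 0.0034 and 0.0128 in vehicle arrays. In purmorphamine arrays it stood at -0.008, -0.0025 and -0.0035, so that there too the groups did not overlap, by a smaller distance. By class, the median difference was -0.02 for the core, -0.08 for the base, -0.09 for the lid and -0.05 for the activators. With 1 array left out the core median ran from -0.0418 to -0.0046, the latter without vehicle replicate 1. The class medians were not tested against each other, and the median standard error of a single member was 0.06.

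**Figure D2:**
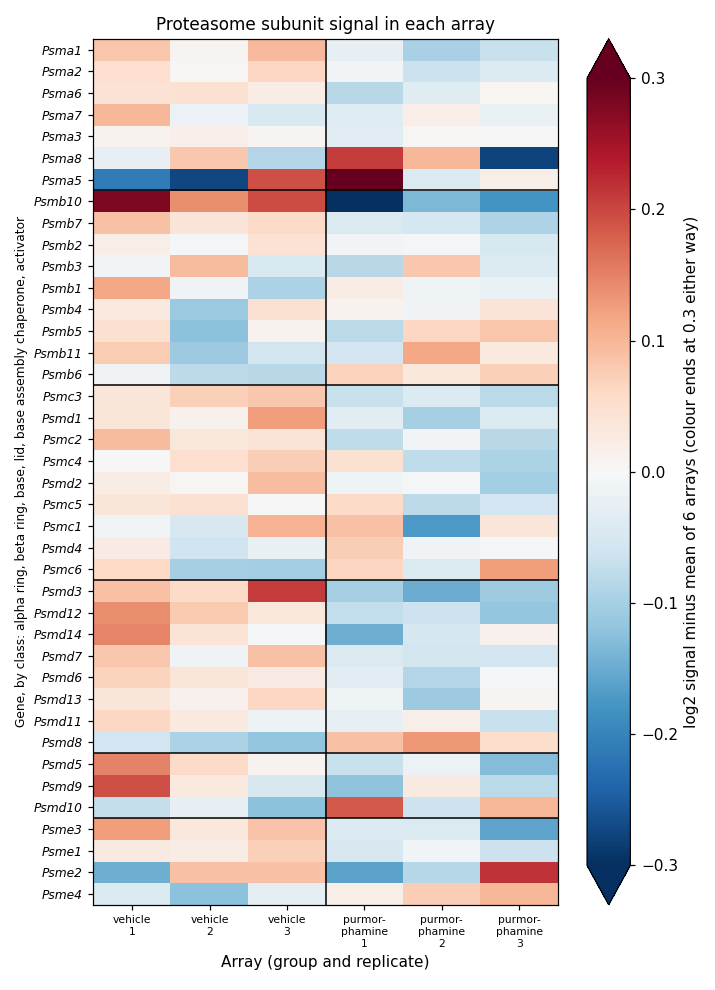
Signal of each gene in each array as log2 deviation from the gene's mean over the 6 arrays (colour), with genes by class from top to bottom and vehicle arrays left of the vertical line. Psmb10 is the row with the strongest contrast between groups among the called genes, and Psma5 and Psma8 vary most within groups.

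In the alpha ring, whose subunits form the gate and the docking surface for the caps, 0 of 7 genes passed the test. Differences ran from -0.12 (Psma1) to 0.19 (Psma5). Psma3 differed by -0.02, where its vehicle arrays read 11.64, 11.64 and 11.64 and its purmorphamine arrays 11.59, 11.63 and 11.62. The 3 purmorphamine arrays lay below the vehicle arrays in Psma1, Psma2, Psma3 and Psma6. The probe set of Psma5 was dim, at a mean of 5.29 where the lower quartiles of the arrays lay at 5.03 to 5.08, and its second probe set was dimmer still (4.87) and differed by -0.01. Its interval, -0.15 to 0.54, therefore bounds an array value and not the change of the transcript. Psma8, the alpha subunit of the testis, read 6.74, 6.85 and 6.68 with vehicle and 6.98, 6.87 and 6.49 with purmorphamine, and the groups overlapped.

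Among the standard catalytic subunits, none of the 3 genes passed the test. Psmb5, the chymotrypsin-like subunit, read 10.17, 9.99 and 10.13 with vehicle and 10.04, 10.18 and 10.20 with purmorphamine. These groups overlapped, and the difference was 0.04 (95% interval -0.13 to 0.21, limma adjusted p = 0.76). Psmb6, the caspase-like subunit, read 10.91, 10.84 and 10.83 and then 10.99, 10.95 and 10.99. All its purmorphamine arrays were the higher ones, by 0.11 (95% interval -0.005 to 0.23, limma adjusted p = 0.196). Psmb7, the trypsin-like subunit, read 11.08, 11.03 and 11.05 and then 10.95, 10.94 and 10.90, a difference of -0.12 (95% interval -0.24 to -0.008, limma adjusted p = 0.152). Here all purmorphamine arrays were the lower ones. The non-catalytic beta genes Psmb1, Psmb2, Psmb3 and Psmb4 differed by -0.007, -0.04, -0.03 and 0.03. Of these, Psmb3 had the dimmest probe set, at a mean of 6.90 where the others lay at 9.59 to 10.72. Psmb11, the beta subunit of the thymic cortex, was dim, with 5.46, 5.28 and 5.33 in vehicle arrays and 5.33, 5.50 and 5.42 in purmorphamine arrays, and its groups overlapped.

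Psmb10, the inducible subunit that stands in for Psmb7, fell. Its vehicle arrays read 9.80, 9.66 and 9.71 and its purmorphamine arrays 9.22, 9.38 and 9.34. Even the highest purmorphamine array lay below the lowest vehicle array, and the means were 9.72 ± 0.07 and 9.31 ± 0.09 (SD, n = 3 per group). The difference was -0.41 (SE 0.07, 95% interval -0.57 to -0.25, limma adjusted p = 0.00796), and the call held in all 6 fits that lacked 1 array (0.0191 to 0.0318) but not without both replicate 3 arrays (0.0797). Chosen after these values were seen, the difference between Psmb10 and Psmb7 was also taken within each array. It read -1.29, -1.38 and -1.34 with vehicle and -1.74, -1.56 and -1.57 with purmorphamine, so the 2 signals moved apart by 0.29. The groups did not overlap, which is no support of its own, because the pair was chosen after the fall of Psmb10 was seen.

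Cell type markers moved in the same cultures. Leukocyte transcripts were bright, all 12 listed markers having a mean of at least 9.32. Of these markers 5 fell and 1 rose. For comparison, 14.3% of all genes and 28.4% of genes with a mean signal over 8.2 were called. The leukocyte markers differed in both directions. Itgam, Coro1a, Csf1r, Mrc1 and Adgre1 fell, with differences of -1.46, -0.71, -0.63, -0.62 and -0.375. Itgax rose by 0.31. Marco, Cd14, Cd68 and Lyz2 were not called but lay higher in every purmorphamine array, by 0.20, 0.19, 0.13 and 0.05. Ptprc (0.07) and Fcer1g (-0.17) had overlapping groups. The log2 of the 12 summed linear signals lay at 15.95 to 15.96 in vehicle arrays and at 15.83 to 15.88 in purmorphamine arrays. All 10 fibroblast markers were called, with 8 higher and 2 lower, and their summed signal lay at 14.11 to 14.15 in vehicle arrays and at 14.46 to 14.55 in purmorphamine arrays. Of the epithelial markers 1 of 5 rose, and of the endothelial markers 2 of 4, with 0 falls in either list. The part of these shifts in the fall of Psmb10 was not tested. In a bulk culture, fewer cells of a type and less RNA per cell cannot be told apart.

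**Figure D3:**
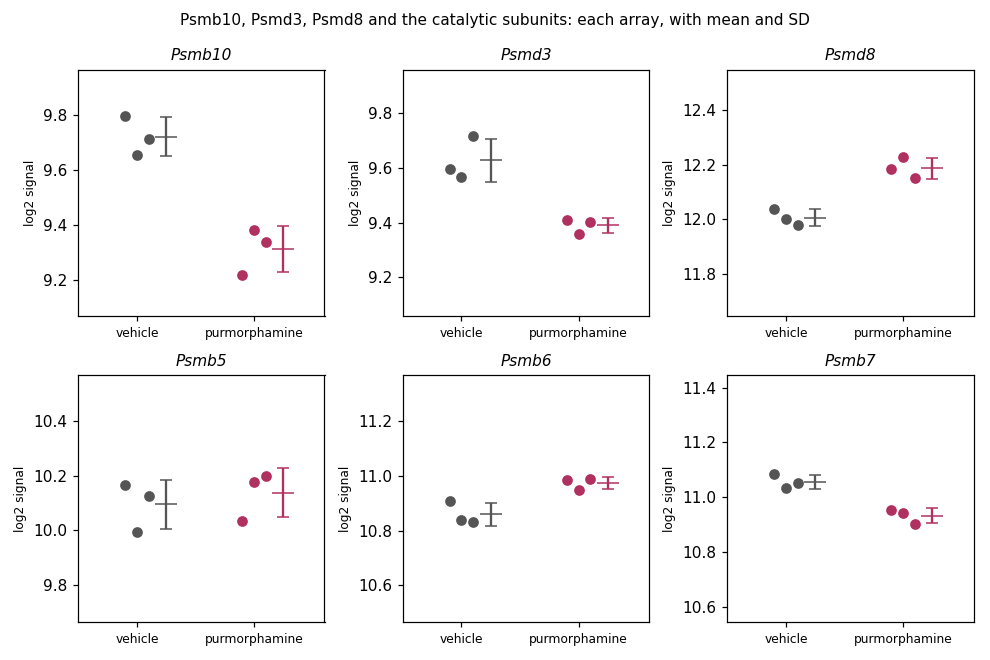
log2 signal of 6 members in each array (points), with the group mean and SD beside them (n = 3 per group). Each panel spans the same range of the log2 scale, and the groups are apart in Psmb10, Psmd3, Psmd8, Psmb6 and Psmb7 and overlap in Psmb5.

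In the base, 0 of 9 genes passed the test. The 6 ATPase genes Psmc1 to Psmc6, whose products form the ring that unfolds substrates and threads them into the core, differed by -0.13 (Psmc3) to 0.10 (Psmc6). Psmc3 read 9.78, 9.81 and 9.82 with vehicle and 9.67, 9.70 and 9.66 with purmorphamine, the groups being apart (limma adjusted p = 0.139). Psmc2 differed by -0.11 in its bright probe set and by -0.02 in a dimmer one. The scaffold genes Psmd1 and Psmd2 differed by -0.12 and -0.08, with the purmorphamine arrays lower in each. Psmd4, a ubiquitin receptor that sits between base and lid, differed by 0.04 with overlapping groups.

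Of the 8 lid genes, Psmd3 fell. This lid scaffold gene read 9.60, 9.57 and 9.72 with vehicle and 9.41, 9.36 and 9.40 with purmorphamine, and all the purmorphamine arrays were lower. The difference was -0.24 (SE 0.06, 95% interval -0.38 to -0.10, limma adjusted p = 0.0394). The call rested on all 6 arrays: with any 1 left out the adjusted p ran from 0.0625 to 0.105. Of the other 7 lid genes, 6 had a negative difference and 1, Psmd8, a positive one, and none passed the test. Psmd8, which encodes a late-joining lid subunit, read 12.038, 12.002 and 11.979 and then 12.185, 12.226 and 12.150, with every purmorphamine array higher. Its difference of 0.18 (95% interval 0.06 to 0.30) had a limma adjusted p of 0.0596, and it passed the test after quantile normalization, with an offset of 50, without the dimmest genes and with a variance trend (adjusted p from 0.00134 to 0.0385). Psmd12 differed the other way, with 11.08, 11.02 and 10.98 and then 10.87, 10.88 and 10.83, by -0.17 (limma adjusted p = 0.0844). Under 3 of the same 4 alternatives its fall passed the test (0.00723 to 0.0341). Psmd14, the deubiquitinase of the lid, differed by -0.12 with overlapping groups, and Psmd6, Psmd7, Psmd11 and Psmd13 differed by -0.05 to -0.11.

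None of the 4 activators, which open the gate of the core in place of the regulatory particle, passed the test. Psme1, a partner in the interferon-inducible cap, read 10.33, 10.32 and 10.37 with vehicle and 10.25, 10.29 and 10.23 with purmorphamine. All 3 purmorphamine arrays were lower, by 0.08 (limma adjusted p = 0.346). Its partner Psme2 read 7.63, 7.87 and 7.86 and then 7.62, 7.69 and 7.99, with overlapping groups and a difference of -0.02 (95% interval -0.29 to 0.25). The nuclear activator gene Psme3 read 9.89, 9.80 and 9.86 and then 9.73, 9.73 and 9.61, lower in every purmorphamine array by 0.16 (limma adjusted p = 0.119). The large nuclear activator gene Psme4 read 10.43, 10.35 and 10.44 and then 10.49, 10.55 and 10.57, higher in each by 0.13 (limma adjusted p = 0.181). For Psme1 and Psme2, linked to the same inducible form as Psmb10, the intervals ran from -0.20 to 0.04 and from -0.29 to 0.25. The interval of Psmb10, from -0.57 to -0.25, lay apart from that of Psme1 and overlapped that of Psme2, and the differences between these genes were not tested.

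The chaperone genes of base assembly, Psmd5, Psmd9 and Psmd10, whose products leave before the particle is finished, differed by -0.14, -0.12 and 0.15, and none was called. All 5 core assembly factors measured missed it as well. Among them Pomp, which guides beta ring assembly and is degraded as the first substrate, read 10.42, 10.42 and 10.46 and then 10.31, 10.29 and 10.21. Its purmorphamine arrays were all lower, by 0.16 (limma adjusted p = 0.0929). The chaperone genes Psmg1, Psmg2, Psmg3 and Psmg4 differed by -0.12, 0.03, -0.19 and -0.17.

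**Figure D4:**
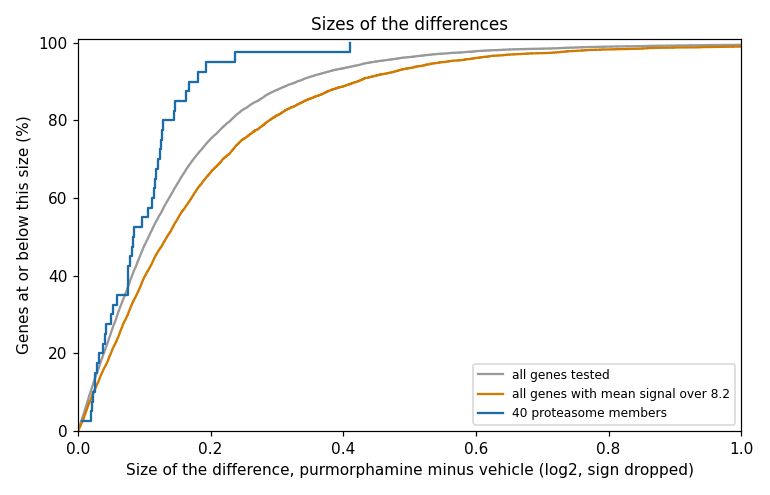
Share of genes (vertical axis) whose difference, sign dropped, is at or below the size on the horizontal axis (log2), for the 40 members, all genes tested and all genes with a mean signal over 8.2. The curve of the members reaches 100% at 0.41, the size of the fall of Psmb10.

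Of 32 genes that regulate, assemble or work with the proteasome, 3 rose and 2 fell, or 15.6%, near the 14.3% called over all genes. The share called was 28.4% among all genes with a mean signal over 8.2. Nfe2l1, which encodes NRF1, rose: its arrays read 9.52, 9.46 and 9.55 with vehicle and 9.88, 9.89 and 9.90 with purmorphamine. All purmorphamine arrays were higher, by 0.37 (SE 0.05, limma adjusted p = 0.00371), and the rise passed the test with any 1 array left out but had an adjusted p of 0.051 without both replicate 3 arrays. Nfe2l2, encoding NRF2, differed by 0.16 (limma adjusted p = 0.0829). Of the 12 transcription factor and processing genes listed, 1 rose and 1 fell, or 16.7% against 14.3% of all genes. The fall was that of Nfya, a subunit of NF-Y, by 0.31 (limma adjusted p = 0.0196), while Nfyb and Nfyc, its partners, each differed by 0.02.

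Beside these, the 5 members with TGACNNNGC in their window differed in both directions. Psmb5, Psmb6 and Psmc6 differed by 0.04, 0.11 and 0.10, and Psmd12 and Psmd9 by -0.17 and -0.12, and none passed the test. The median was 0.04 in these 5 genes and -0.06 in the 28 genes whose windows held no such letters. The 13 genes with CCAAT had a median of -0.03, the 20 without it -0.06. None of these medians was tested against another. Psmd3, which fell, had no window and is in none of these groups.

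Of 10 proteasome-associated factors measured, 2 rose and 1 fell, or 30.0%. That compares with 14.3% of all genes and 28.4% of genes with a mean signal over 8.2. Zfand2a and Zfand5 encode stress-linked zinc finger proteins that bind the proteasome, and they rose by 0.24 and 0.22 (limma adjusted p = 0.0184 and 0.029). In each, every purmorphamine array lay above every vehicle array. Uchl5, a deubiquitinase docked on the base, fell by 0.32, from 10.16, 10.02 and 10.19 to 9.88, 9.71 and 9.82 (limma adjusted p = 0.0273). The lid subunit gene Sem1 differed by -0.14 and the inhibitor gene Psmf1 by 0.11, and neither passed. With 1 array left out, Zfand5 missed the test in all 6 cases, Zfand2a in 5, and Uchl5 and Nfya in 4 each. Of the 4 shuttle factor genes measured, Rad23b, Ubqln1, Ubqln2 and Ubqln4, and of the ubiquitin and E1 genes, where Uba6 was the 1 measured, 0 passed in either direction.

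**Figure D5:**
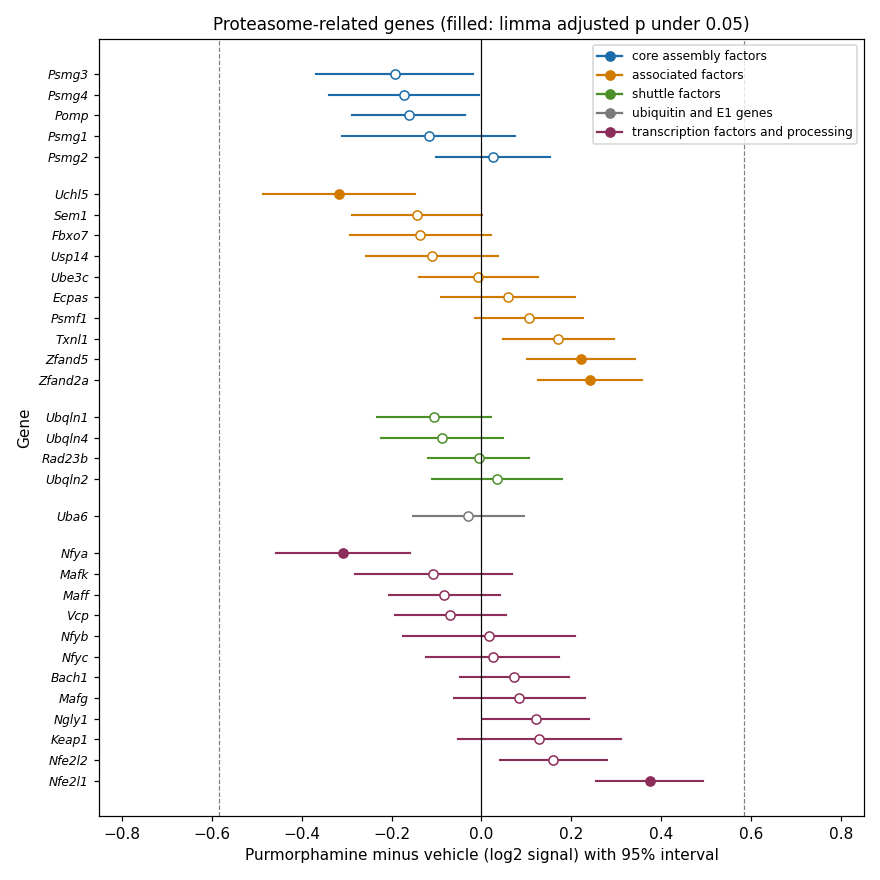
Difference between purmorphamine and vehicle (log2 signal) with its 95% interval from limma for the 32 related genes measured, by list. Filled points passed the test: Nfe2l1, Zfand2a and Zfand5 to the right of 0 and Uchl5 and Nfya to the left.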

How the data were processed

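RNA of 6 wells was hybridised to 6 arrays, 3 per group. The values deposited by the authors are on a log2 scale. The submitters' processing notes list oligo, RMA and limma, without versions. RMA brings the probe intensities of all arrays to 1 distribution before probe sets are summarised. This hides a shift shared by all genes, and RMA compresses differences of dim genes. Arrays have no depth, and their number limits the precision (median SE 0.07). Array medians lay at 6.34 to 6.39. Across genes, arrays of 1 group correlated at 0.996 to 0.997.

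Probe sets were named from the platform annotation: 23521 of 41345 had 1 symbol. The brightest probe set per gene was tested with lmFit and eBayes (limma 3.58.1, R 4.3.3), two-sided, with Benjamini-Hochberg adjustment over 22180 genes. Members, lists and naming rules were chosen with earlier results of these data known, and the 8.2 threshold and the 1.2-fold and 1.5-fold limits after the values were seen. Values in each array are given for called members, the catalytic and tissue-restricted subunits and the activators, and for Psma3, Psmc3, Psmd8, Psmd12 and some related genes chosen after their values were seen. In data simulated for this comparison (22180 genes), 91% of genes changed 2-fold and 57% changed 1.41-fold were recovered. The simulation gave 151 calls, where the data gave 3181, and its changed genes were drawn at any brightness. Its rates are therefore not those of the members. Alternatives were another scaling or quantile normalization, an offset, a filter, other probe set rules, a variance trend, array weights, a replicate block, arrays left out and an adjusted p under 0.1. Promoter sequences are RefSeq's (GRCm38.p6).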

Additional observations from a re-analysis of the deposited data

How the results depend on the processing

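Median centring, the mean of probe sets, every probe set tested alone and array weights left the counts of members that fell (2) and rose (0) as they were. The number that fell was 6 with an offset of 50, 7 with a variance trend and robust fit, 1 with the replicate block, 1 with any 1 array left out and 0 without both replicate 3 arrays, an alternative chosen after seeing the data, with fewer samples. The number that rose was 1 after quantile normalization, with an offset of 50, without the dimmest genes or at an adjusted p under 0.1, and 3 with the variance trend; it was 0 with any 1 array left out. Over all genes, 897 to 1168 rose and 1057 to 1206 fell with 1 array left out, 440 and 511 without both replicate 3 arrays, and 2416 and 2281 with the trend. The median of all members ran from -0.0792 to -0.0572 with 1 array left out, that of the core from -0.0418 to -0.0046, that of the base ran from -0.095 to -0.0571 and was -0.041 without both replicate 3 arrays, and that of the activators ran from -0.0965 to -0.0109 with 1 array left out. Differences that changed sign, none of them past the test, had these ranges with 1 array left out: Psma7 -0.0544 to 0.0188, Psma8 -0.0795 to 0.165, Psmb1 -0.0558 to 0.0496, Psmb3 -0.076 to 0.0124, Psmb4 -0.0238 to 0.0548, Psmb5 -0.0079 to 0.0935, Psmc1 -0.084 to 0.0464 and Psme2 -0.133 to 0.0555; Psmb1 was 0.0006 after quantile normalization. Same-numbered arrays deviated together only weakly (r = 0.106, 0.024 and 0.103, each array matching its own number best, a hint from the data and not the design), so they were not treated as pairs. With the replicate block Psmd3 differed by -0.24 (adjusted p = 0.0674), and the calls of Zfand2a (0.0541) and Zfand5 (0.0679) were lost, while those of Psmb10 and Nfe2l1 were not. The cause of these changes was not tested.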
